A study of Homo sapiens with 8 samples.

Results

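The genes described here are the 4 human NOTCH receptors (NOTCH1, NOTCH2, NOTCH3 and NOTCH4), the 3 fringe enzymes (LFNG, MFNG and RFNG) and 3 NOTCH ligands (JAG1, JAG2 and DLL1), chosen by name. Of these 10 genes, 9 have a probe set named for them by the array's annotation, out of 17709 probe sets that name 1 gene and 21448 probe sets in all. No probe set carries the symbol of LFNG, so its level was not analysed here. Each of the other 9 genes has 1 probe set.

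The cells were CUTLL1, a human T-cell leukemia and lymphoma line that carries a t(7;9) rearrangement of NOTCH1 and depends on NOTCH signalling. All cells had been transduced with a lentivirus and sorted by flow cytometry, and 4 groups of 2 arrays were profiled on Clarion S microarrays. The groups were cells carrying the miR-17-92 cluster (miRNA17-92 cells) with GSI at 1 µM, the same cells with DMSO, cells carrying the empty vector (Empty-V) with GSI at 1 µM, and Empty-V cells with DMSO, each cultured for 2 days. GSI is an inhibitor of γ-secretase, DMSO is its solvent, and the 2 arrays of a group are labelled set 1 and set 2. The lentiviral vector holds a GFP reporter, expression of the cluster was constitutive, and all groups derive from 1 line, so that the comparisons speak of CUTLL1 cells alone.

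NOTCH receptors are single-pass membrane proteins that are cut after a ligand on a neighbouring cell pulls on them. The last cut, by γ-secretase, frees the intracellular domain, which enters the nucleus and activates target genes together with RBPJ and a Mastermind protein. Fringes are glycosyltransferases of the Golgi that extend the O-fucose sugars of the receptors and so alter which ligands can trigger them. JAG1, JAG2 and DLL1 are ligands, and NOTCH1 is needed for T-cell development in the thymus and is activated by mutation or rearrangement in T-cell leukemia. NOTCH3 is a known transcriptional target of NOTCH1 in such cells. The miR-17-92 cluster gives several mature miRNAs, which lower the mRNAs and proteins of genes that carry matches to their seeds.

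The agent that separates the miRNA17-92 cells from the Empty-V cells is shown by its mature miRNAs, because their seeds decide which transcripts they can pair with. The sequences are those of RefSeq, on the plus strand of chromosome 13 of GRCh38.p14 between 91350618 and 91351382, written in the 5′ to 3′ direction with the seed (bases 2 to 8) in capitals.
miR-17-5p: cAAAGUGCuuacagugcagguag
miR-20a-5p: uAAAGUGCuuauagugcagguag
miR-18a-5p: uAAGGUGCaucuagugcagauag
miR-19a-3p: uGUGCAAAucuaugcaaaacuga
miR-19b-3p: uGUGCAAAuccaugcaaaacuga
miR-92a-3p: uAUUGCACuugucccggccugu
The 6 miRNAs fall into 4 seeds, since miR-17-5p shares AAAGUGC with miR-20a-5p and miR-19a-3p shares GUGCAAA with miR-19b-3p, while miR-18a-5p has AAGGUGC and miR-92a-3p has AUUGCAC. Matches to these seeds in the transcripts of the receptors, fringes and ligands were not analysed here.

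The promoters of NOTCH1 and NOTCH3 are shown because these were the genes that fell with GSI. Each window runs from 250 bases before to 50 bases after the start of the RefSeq gene on GRCh38.p14, on the strand of the gene, with every CpG dinucleotide in capitals. The window of NOTCH1 is chr9:136545999-136546298 on the minus strand, and that of NOTCH3 is chr19:15200946-15201245, also on the minus strand.
NOTCH1: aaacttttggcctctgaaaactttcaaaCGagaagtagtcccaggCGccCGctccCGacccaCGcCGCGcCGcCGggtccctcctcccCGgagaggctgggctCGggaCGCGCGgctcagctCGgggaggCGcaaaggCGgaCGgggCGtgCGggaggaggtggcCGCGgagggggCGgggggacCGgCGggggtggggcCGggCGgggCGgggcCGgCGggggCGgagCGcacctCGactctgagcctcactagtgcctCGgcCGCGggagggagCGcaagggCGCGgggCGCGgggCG
NOTCH3: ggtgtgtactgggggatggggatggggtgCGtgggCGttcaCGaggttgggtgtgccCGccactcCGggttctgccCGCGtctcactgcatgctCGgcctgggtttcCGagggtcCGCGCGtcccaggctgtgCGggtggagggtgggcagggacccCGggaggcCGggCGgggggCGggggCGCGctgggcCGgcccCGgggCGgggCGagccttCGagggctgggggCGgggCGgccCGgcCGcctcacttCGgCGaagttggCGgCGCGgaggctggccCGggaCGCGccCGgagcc
The NOTCH1 window had 42 CpG dinucleotides and 77% G and C, and the NOTCH3 window had 37 and 78.3%, against medians of 14 and 58.7% over 35116 RefSeq promoter windows of the same length. Neither window held TGGGAA, the core letters bound by RBPJ, on either strand, while 24% of all windows did, and neither held TATAAA, found in 11.5% of windows. Genes not called with GSI had similar windows: RFNG with 43 CpG dinucleotides and 77.7% G and C, JAG2 with 46 and 79.7%, NOTCH2 with 33 and 70.3%, and JAG1 with 24 and 68.7%. That of NOTCH4 had 5 and 59%. None of these windows held TGGGAA or TATAAA, so these traits do not set NOTCH1 and NOTCH3 apart. These counts describe the reference sequence only, and in CUTLL1 the rearranged copy of NOTCH1 is joined to the T-cell receptor beta locus.

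Levels are given as log2 signal, the scale of the deposited values, on which a difference of 1 is a doubling. Array medians lay between 5.3 and 5.36 and single values between 1.97 and 18.49. Replicate arrays correlated across probe sets, which are not independent replicates, with r of 0.9941 to 0.9953, and their median absolute difference was 0.19 to 0.22. The labelled T-lineage identity was borne out, as 11 of 11 markers lay above the median probe set and their summed level was 17.4 to 17.48 and 17.09 to 17.18 in miRNA17-92 cells with GSI and DMSO, and 17.62 to 17.64 and 17.24 to 17.26 in Empty-V cells with GSI and DMSO. B-cell, myeloid, erythroid and stromal or epithelial markers summed to between 5.914 and 9.989 on any array. Below the median probe set lay 1 of 4 B-cell, 5 of 5 myeloid, 2 of 3 erythroid and 4 of 6 stromal or epithelial markers. A level above the median therefore does not by itself set the T lineage apart. NRARP and HES1, a feedback inhibitor and a repressor that NOTCH1 induces, had log2 fold changes of -5.90 and -3.22 with GSI over both vectors (adjusted p = 1.59e-07 and 1.32e-06, limma). They are among 8 genes listed as readouts of NOTCH1, of which 6 were called in this comparison, all lower. The readouts without a call were MYC, at -0.49 on the log2 scale (limma, adjusted p = 0.0562), and HES5, at -0.295 (0.152).

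Differences were tested in limma with 1 model of 4 group means over all 8 arrays. In each of 6 comparisons the Benjamini-Hochberg adjustment covered all 21448 probe sets, and a gene was called at an adjusted p under 0.05. The sets are described as independent experiments on 1 cell line, and the precision is limited by the number of arrays. Fewer cells of a kind and less RNA per cell cannot be told apart in such bulk samples.

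**Figure D1:**
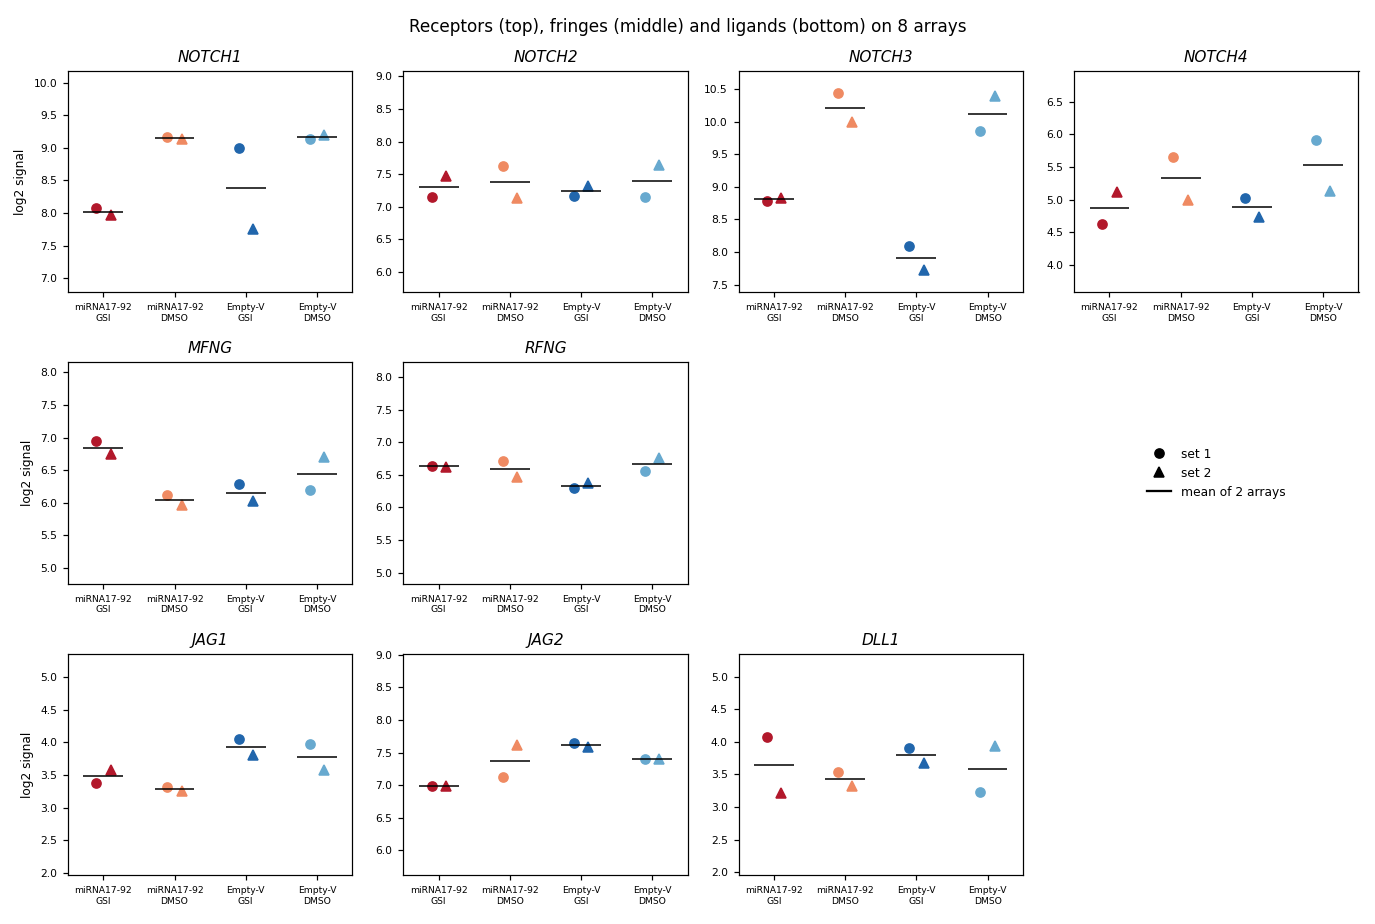
Log2 signal of the 9 measured genes on each of the 8 arrays, one panel a gene, with vector and treatment on the horizontal axis, circles for set 1, triangles for set 2 and a line at the mean of 2 arrays. Every vertical axis spans the same number of log2 units, and NOTCH3 has all 4 GSI arrays below all 4 DMSO arrays.

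NOTCH3 fell the furthest of the 9 genes with GSI. It was at 8.79 and 8.83 with GSI against 10.44 and 9.99 with DMSO in miRNA17-92 cells, and at 8.10 and 7.72 with GSI against 9.85 and 10.39 with DMSO in Empty-V cells. All 4 arrays with GSI lay below all 4 arrays with DMSO. Over both vectors the log2 fold change was -1.81 (standard error 0.17, 95% interval -2.19 to -1.43, adjusted p = 2.12e-04, limma), which leaves 0.286 of the DMSO signal.

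NOTCH3 encodes a receptor on chromosome 19 of GRCh38.p14 from 15159038 to 15200995. It passed the test within each vector, lower with GSI in both. In miRNA17-92 cells the log2 fold change was -1.40 (95% interval -1.94 to -0.87, adjusted p = 0.0209, limma). In Empty-V cells it was -2.21 (95% interval -2.75 to -1.67, adjusted p = 7.72e-04, limma). The call in miRNA17-92 cells was lost in fits without either GSI array of miRNA17-92 cells (adjusted p = 0.139 and 0.109, limma) or without their DMSO array of set 1 (0.155).

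With GSI, NOTCH3 was higher in miRNA17-92 cells than in Empty-V cells, at 8.79 and 8.83 against 8.10 and 7.72, and the arrays did not overlap. The log2 fold change of 0.90 (standard error 0.24, 95% interval 0.36 to 1.44) did not pass the test (adjusted p = 0.0981, limma). It passed when probe sets below the median signal were left out (adjusted p = 0.0465, limma) and with an intensity trend and a robust fit (0.0242), and lay further from the threshold with the set as a replicate block (0.193). With DMSO the miRNA17-92 and Empty-V arrays overlapped, at 10.44 and 9.99 against 9.85 and 10.39, with a log2 fold change of 0.10 (95% interval -0.44 to 0.63, adjusted p = 0.929, limma). The fall with GSI was smaller by 0.81 in miRNA17-92 cells than in Empty-V cells, and this difference of the 2 effects did not pass (95% interval 0.05 to 1.56, adjusted p = 0.376, limma).

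The NOTCH3 means with GSI were 8.81 ± 0.03 in miRNA17-92 cells and 7.91 ± 0.27 in Empty-V cells, and those with DMSO were 10.22 ± 0.32 in miRNA17-92 cells and 10.12 ± 0.38 in Empty-V cells (SD, n = 2 each). Empty-V cells with GSI were thus the lowest group, followed by miRNA17-92 cells with GSI and then the DMSO groups. The vectors differed by more than either SD with GSI, without a call, and by less than either SD with DMSO.

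NOTCH1, the receptor rearranged in this line, also fell with GSI over both vectors, and 1 array stood apart. It was at 8.07 and 7.97 with GSI against 9.17 and 9.13 with DMSO in miRNA17-92 cells. In Empty-V cells it was at 8.99 and 7.76 with GSI against 9.13 and 9.20 with DMSO. The Empty-V GSI array of set 1 thus lay 0.14 below the DMSO array of its set, where the other 3 pairs differed by -1.44, -1.16 and -1.10.

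All 4 GSI arrays lay below all 4 DMSO arrays for NOTCH1 (chromosome 9 of GRCh38.p14, 136494433 to 136546048). The log2 fold change over both vectors was -0.96 (standard error 0.23, 95% interval -1.47 to -0.45, adjusted p = 0.0343, limma), or 0.514 of the DMSO signal. Without the Empty-V GSI array of set 1 it was -1.27 (adjusted p = 0.00101, limma), and without that of set 2 it was -0.65 (0.0234). The call was lost without any 1 of the other 6 arrays, where limma gave log2 fold changes of -0.99 to -0.94 with adjusted p between 0.0804 and 0.0955.

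Within a single vector the fall of NOTCH1 did not pass. In miRNA17-92 cells, whose 4 arrays fell into 2 close pairs, the log2 fold change was -1.13 (95% interval -1.86 to -0.40, adjusted p = 0.148, limma). With only those 4 arrays in the fit it passed (adjusted p = 0.0375, limma), as it did with an intensity trend and a robust fit (0.0404) and without either Empty-V GSI array (0.0132 for each). In Empty-V cells the log2 fold change was -0.79 (95% interval -1.52 to -0.06, adjusted p = 0.187, limma), against -1.41 without the GSI array of set 1 (0.00785) and -0.18 without that of set 2 (0.698).

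The means of NOTCH1, from the lowest, were 8.02 ± 0.07 in miRNA17-92 cells with GSI, 8.38 ± 0.87 in Empty-V cells with GSI, 9.15 ± 0.03 in miRNA17-92 cells with DMSO and 9.17 ± 0.05 in Empty-V cells with DMSO (SD, n = 2 each). The vectors differed by less than the SD of the Empty-V arrays with GSI, and by less than either SD with DMSO. Between miRNA17-92 and Empty-V cells the log2 fold change of NOTCH1 was -0.36 with GSI (95% interval -1.08 to 0.37, adjusted p = 0.61, limma) and -0.02 with DMSO (95% interval -0.74 to 0.71, adjusted p = 0.993). The first of these turned to 0.26 without the Empty-V GSI array of set 1. The GSI effect in miRNA17-92 cells minus that in Empty-V cells was -0.34 (95% interval -1.37 to 0.69, adjusted p = 0.793, limma). Where the probes of NOTCH1 lie relative to the breakpoint was not analysed here, so the rearranged and the intact copy cannot be told apart.

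The Empty-V GSI array of set 1 also had smaller differences from its DMSO partner than set 2 at HES4, DTX1 and PTCRA. Of the NOTCH1 readout genes, such differences were computed for these, HES1 and NRARP, and not for HES5, HEY1 and MYC. HES4, a repressor of the HES family, differed by -1.59 in set 1 and -2.78 in set 2. DTX1, which encodes a Deltex ubiquitin ligase, differed by -3.06 and -3.95, and PTCRA, the pre-T-cell receptor alpha chain, by -1.27 and -2.34. For PTCRA the DMSO arrays of the sets also differed, at 8.69 and 9.27, beside 7.42 and 6.93 with GSI. Its gap between the sets is thus not a matter of the GSI array alone. HES1 ran the other way, at -3.96 in set 1 and -3.53 in set 2, and NRARP was nearly equal at -5.72 and -5.79. The part of this array in the NOTCH1 result was measured only by leaving it out, as above.

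**Figure D2:**
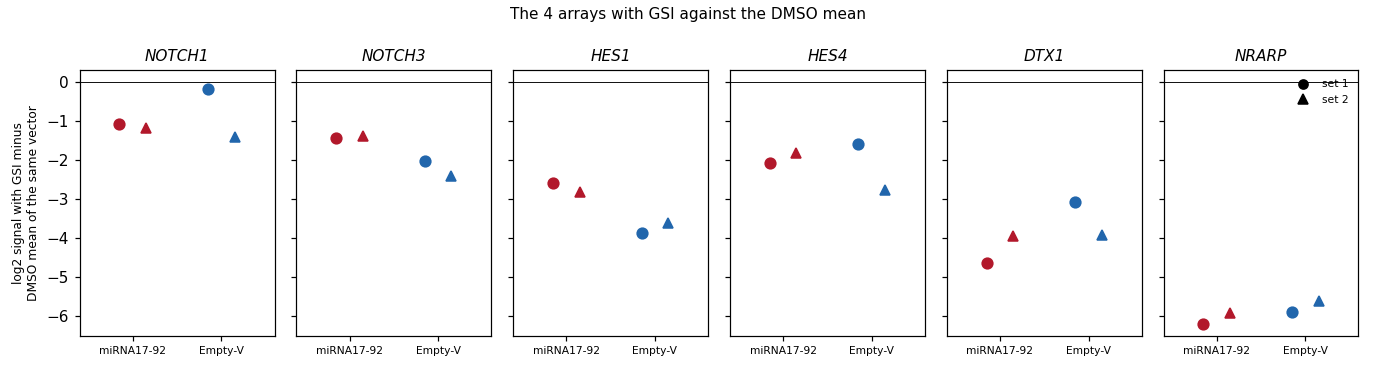
Log2 signal of each of the 4 GSI arrays minus the DMSO mean of the same vector, for NOTCH1, NOTCH3 and 4 NOTCH readout genes, with circles for set 1 and triangles for set 2. The Empty-V array of set 1 sits near 0 for NOTCH1 and nearer to 0 than set 2 for HES4 and DTX1. It lies further from 0 than set 2 for HES1, and its NRARP value is like the others.

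NOTCH2 and NOTCH4 did not pass in any of the 6 comparisons. NOTCH2, a receptor of mature lymphocytes and many other tissues, was at 7.15 and 7.47 with GSI against 7.63 and 7.13 with DMSO in miRNA17-92 cells. In Empty-V cells it was at 7.17 and 7.32 with GSI against 7.15 and 7.64 with DMSO. The groups overlapped in each vector, and the log2 fold change over both was -0.11 (95% interval -0.48 to 0.26, adjusted p = 0.757, limma). Partial copies of NOTCH2 lie on the same chromosome and their transcripts may share probes with it. One of them, NOTCH2NLA, has its own probe set, at 8.25 and 8.18 with GSI against 8.49 and 8.12 with DMSO in miRNA17-92 cells and at 7.87 and 8.04 against 7.97 and 8.37 in Empty-V cells.

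NOTCH4, best known from the endothelium, was at 4.63 and 5.11 with GSI against 5.66 and 4.99 with DMSO in miRNA17-92 cells, and at 5.03 and 4.73 with GSI against 5.92 and 5.13 with DMSO in Empty-V cells. Of these 8 values 6 lay below 5.308, the median over all probe sets. Its log2 fold change over both vectors was -0.55 (95% interval -1.05 to -0.05, adjusted p = 0.172, limma), and it was -0.35 without the Empty-V DMSO array of set 1 and -0.75 without that of set 2. The GSI and DMSO arrays did not overlap in Empty-V cells and overlapped in miRNA17-92 cells.

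Over all 9 measured genes, 2 passed with GSI over both vectors, NOTCH1 and NOTCH3, both lower. In the same comparison 7.83% of all probe sets passed, and 3.48% passed and were lower. The same 2 genes were those whose 4 GSI arrays did not overlap with the 4 DMSO arrays, which held for 12.0% of all probe sets. The median log2 fold change was -0.11 over the 9 genes and 0.0025 over all probe sets.

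Within miRNA17-92 cells 1 of the 9 genes passed, NOTCH3, against 1.57% of probe sets called and 0.606% called and lower. In Empty-V cells it was again NOTCH3, against 7.46% called and 3.66% called and lower. Without the Empty-V GSI array of set 1, NOTCH1 and NOTCH3 were both called in each vector. With 2 arrays against 2, the groups did not overlap for 5 genes in miRNA17-92 cells (NOTCH1, NOTCH3, MFNG, JAG1 and JAG2), against 44.8% of all probe sets, and for 5 in Empty-V cells (NOTCH1, NOTCH3, NOTCH4, RFNG and JAG2), against 50.1%. Both counts lie near the share over all probe sets.

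**Figure D3:**
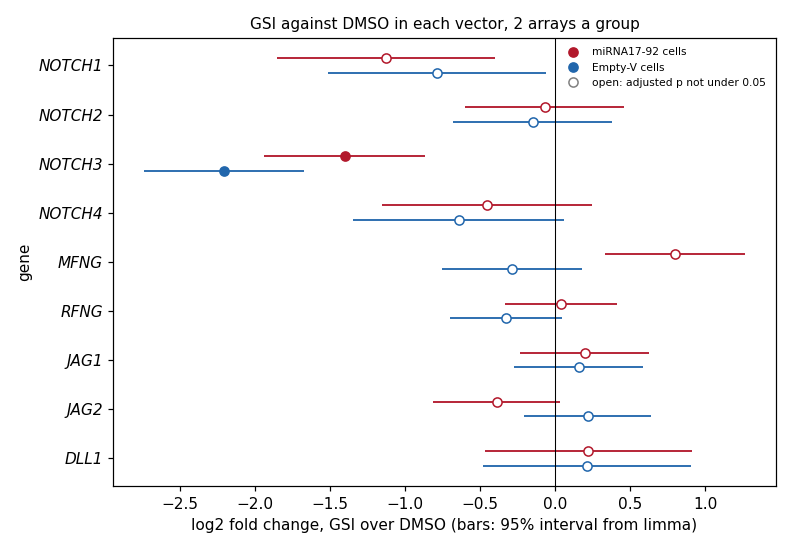
Log2 fold change of GSI over DMSO for the 9 genes in miRNA17-92 cells (red) and Empty-V cells (blue), with 95% intervals from limma and filled points where the adjusted p was under 0.05. NOTCH3 alone is filled in both vectors, at -1.40 in miRNA17-92 cells and -2.21 in Empty-V cells.

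The fringes did not pass in any comparison. MFNG, manic fringe, was at 6.94 and 6.75 with GSI against 6.12 and 5.97 with DMSO in miRNA17-92 cells. In Empty-V cells it was at 6.29 and 6.02 with GSI against 6.19 and 6.70 with DMSO. The arrays did not overlap in miRNA17-92 cells and overlapped in Empty-V cells.

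The log2 fold change of MFNG with GSI was 0.80 in miRNA17-92 cells (95% interval 0.33 to 1.27, adjusted p = 0.111, limma) and -0.29 in Empty-V cells (95% interval -0.76 to 0.18, adjusted p = 0.471). Set by set it was 0.82 and 0.78 in miRNA17-92 cells and 0.10 and -0.68 in Empty-V cells. The difference between these effects was 1.09 (standard error 0.29, 95% interval 0.43 to 1.75), and it did not pass over all probe sets (adjusted p = 0.236, limma).

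Between the vectors, MFNG was at 6.94 and 6.75 in miRNA17-92 cells with GSI against 6.29 and 6.02 in Empty-V cells with GSI, a log2 fold change of 0.69 (95% interval 0.22 to 1.16, adjusted p = 0.133, limma). With DMSO it was at 6.12 and 5.97 in miRNA17-92 cells against 6.19 and 6.70 in Empty-V cells, a log2 fold change of -0.40 (95% interval -0.87 to 0.07, adjusted p = 0.566). The arrays did not overlap in either case, and they lay in opposite directions. The value with DMSO was -0.66 without the Empty-V DMSO array of set 1 and -0.15 without that of set 2, and the GSI effect in Empty-V cells was -0.55 and -0.035 in the same fits.

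RFNG, radical fringe, was at 6.64 and 6.62 with GSI against 6.71 and 6.47 with DMSO in miRNA17-92 cells, and at 6.29 and 6.37 with GSI against 6.56 and 6.76 with DMSO in Empty-V cells. It had the smallest spread of the 9 genes, with an SD of 0.16 over the 8 arrays. Its log2 fold change with GSI was 0.04 in miRNA17-92 cells (95% interval -0.33 to 0.41, adjusted p = 0.945, limma) and -0.33 in Empty-V cells (95% interval -0.70 to 0.04, adjusted p = 0.285). Lunatic fringe, LFNG, is the third enzyme of this family and has no value here.

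Of the ligands, JAG2 had signal above the median probe set on every array, while JAG1 and DLL1 lay below 5.308 on 8 of 8 arrays. JAG2, a ligand of the Serrate type, was at 6.98 and 6.99 with GSI against 7.13 and 7.62 with DMSO in miRNA17-92 cells. In Empty-V cells it was at 7.65 and 7.58 with GSI against 7.40 and 7.40 with DMSO. The GSI arrays lay below the DMSO arrays in miRNA17-92 cells and above them in Empty-V cells.

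The log2 fold change of JAG2 with GSI was -0.39 in miRNA17-92 cells (95% interval -0.81 to 0.03, adjusted p = 0.381, limma) and 0.21 in Empty-V cells (95% interval -0.21 to 0.64, adjusted p = 0.564). The difference of these effects, -0.61 (95% interval -1.20 to -0.01), did not pass (adjusted p = 0.393, limma). Without the miRNA17-92 DMSO array of set 1 the difference was -0.85 and the effect in miRNA17-92 cells -0.64, and without that of set 2 they were -0.36 and -0.15. With GSI the level was lower in miRNA17-92 cells than in Empty-V cells by a log2 fold change of -0.63 (95% interval -1.05 to -0.21, adjusted p = 0.13, limma), with no overlap of the arrays, and with DMSO the log2 fold change was -0.03 (95% interval -0.45 to 0.40, adjusted p = 0.977).

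JAG1, the other Serrate-type ligand, was at 3.38 and 3.58 with GSI against 3.31 and 3.26 with DMSO in miRNA17-92 cells, and at 4.06 and 3.81 with GSI against 3.98 and 3.58 with DMSO in Empty-V cells. It was lower in miRNA17-92 than in Empty-V cells with either treatment, without overlap, by log2 fold changes of -0.46 with GSI (95% interval -0.88 to -0.03, adjusted p = 0.255, limma) and -0.50 with DMSO (95% interval -0.92 to -0.07, adjusted p = 0.461). Neither passed. The mean signal of JAG1 lay at the percentile 21.81 of all probe sets.

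DLL1, a Delta-type ligand that triggers NOTCH1 in lymphocyte precursors, was at 4.08 and 3.22 with GSI against 3.54 and 3.32 with DMSO in miRNA17-92 cells, and at 3.91 and 3.68 with GSI against 3.23 and 3.94 with DMSO in Empty-V cells. Its groups overlapped in all 4 comparisons of 2 groups. The log2 fold change with GSI over both vectors was 0.22 (95% interval -0.27 to 0.70, adjusted p = 0.621, limma).

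Between the vectors none of the 9 genes passed with either treatment. With GSI 1.07% of all probe sets were called between miRNA17-92 and Empty-V cells, and with DMSO 0.0420% were called. At an unadjusted p under 0.05 the genes were NOTCH3, MFNG, JAG1 and JAG2 with GSI, where 17.9% of all probe sets lay under it, and JAG1 with DMSO, where 9.75% did. The arrays did not overlap for 5 genes with GSI (NOTCH3, MFNG, RFNG, JAG1 and JAG2) and for 2 with DMSO (MFNG and JAG1), where 46.7% and 41.5% of all probe sets did not overlap. The median log2 fold change was -0.01 over the 9 genes with GSI and -0.07 with DMSO, against -0.015 and -0.01 over all probe sets. The difference of the GSI effects between the vectors was called for none of the 9 genes and for 0.0280% of all probe sets, and at an unadjusted p under 0.05 the genes were NOTCH3, MFNG and JAG2, against 12.6% of all probe sets.

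**Figure D4:**
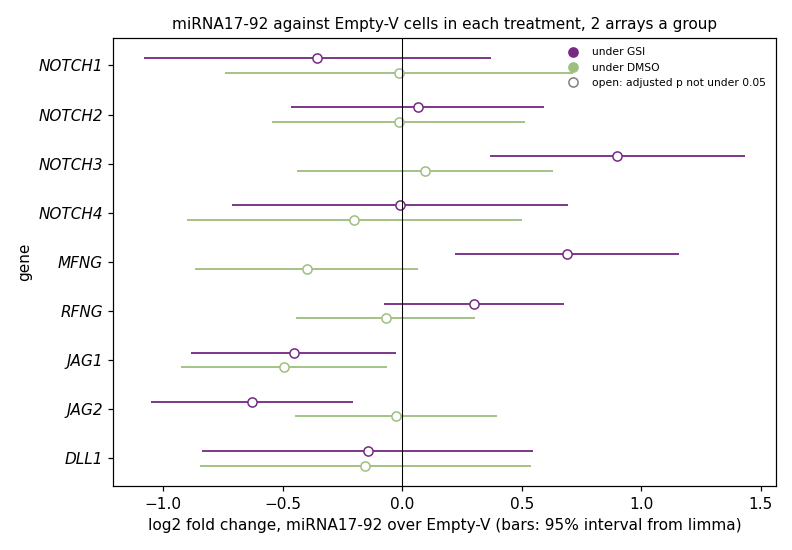
Log2 fold change of miRNA17-92 over Empty-V cells for the 9 genes with GSI (purple) and with DMSO (green), with 95% intervals from limma. No point is filled, as no adjusted p was under 0.05, and NOTCH3 at 0.90 and MFNG at 0.69 with GSI lie furthest to the right.

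The other genes of the pathway were read from a list of 40, of which 35 were analysed here. With GSI over both vectors 6 of the 35 were called and higher and none was called and lower, where 4.35% of all probe sets were called and higher. ADAM10 and ADAM17, the metalloproteases that cut the ectodomain of the receptors, rose by 0.72 and 0.66 on the log2 scale (adjusted p = 0.00776 and 0.0299, limma). NCSTN and APH1B, subunits of γ-secretase, rose by 0.50 and 0.50 (0.0293 and 0.0397), and MAML3 and CREBBP, coactivators of the nuclear complex, by 0.86 and 0.56 (0.00832 and 0.0204). The other measured γ-secretase subunits were not called, with PSEN2 at 0.07, APH1A at -0.22 and PSENEN at -0.055 (adjusted p = 0.847, 0.285 and 0.901, limma). In Empty-V cells APH1A and PSENEN were at -0.535 and -0.57 (0.0821 and 0.227), and in miRNA17-92 cells at 0.09 and 0.46 (0.848 and 0.455).

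With the set as a replicate block only ADAM10 and MAML3 of these 6 passed (adjusted p = 0.0228 and 0.0209, limma), and both passed in the fit without any 1 array, where 2 to 4 of the 35 genes were called. Without the Empty-V GSI array of set 1 the 4 genes called were ADAM10, ADAM17, MAML3 and CREBBP. ADAM10 was at 13.89 and 13.87 with GSI against 13.62 and 13.66 with DMSO in miRNA17-92 cells, and at 14.57 and 14.94 with GSI against 13.62 and 13.48 with DMSO in Empty-V cells. Its arrays with GSI lay above those with DMSO. In Empty-V cells 5 genes rose, ADAM10, ADAM17, MAML3, CREBBP and FURIN, the convertase that cleaves the receptors in the Golgi, where 3.80% of all probe sets were called and higher, and with the set as a replicate block ADAM10 and MAML3 passed (adjusted p = 0.0135 and 0.0439, limma) and ADAM17, CREBBP and FURIN did not (0.088, 0.0996 and 0.0785). In miRNA17-92 cells none of the 35 passed, where 1.57% of all probe sets were called, and none passed for the difference of the GSI effects between the vectors. FURIN lay in opposite directions, with a log2 fold change of 0.75 in Empty-V cells and -0.435 in miRNA17-92 cells (95% interval -0.84 to -0.03, adjusted p = 0.304, limma). Its difference of the effects was -1.185 (95% interval -1.75 to -0.62, adjusted p = 0.216, limma). Without any 1 array, 1 to 4 genes were called and higher in Empty-V cells, and 1 gene, PSENEN, a γ-secretase subunit, was called and lower without the Empty-V GSI array of set 1.

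MAML3, a Mastermind coactivator, was at 5.33 and 4.99 with GSI against 4.51 and 4.48 with DMSO in miRNA17-92 cells, and at 5.76 and 5.55 with GSI against 4.33 and 4.85 with DMSO in Empty-V cells, all within 1 log2 unit of the median probe set. RBPJ, the DNA-binding partner of the receptors, had a log2 fold change of 0.10 with GSI and did not pass. The other ligands DLL3, DLL4, DLK1 and DLK2, the ligand ubiquitin ligases and the genes of receptor turnover had no call with GSI over both vectors. Between miRNA17-92 and Empty-V cells none of the 35 genes passed with either treatment, and FURIN and ADAM10 came nearest with GSI, at -0.91 and -0.88 on the log2 scale with adjusted p of 0.0513 and 0.053 (limma).

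**Figure D5:**
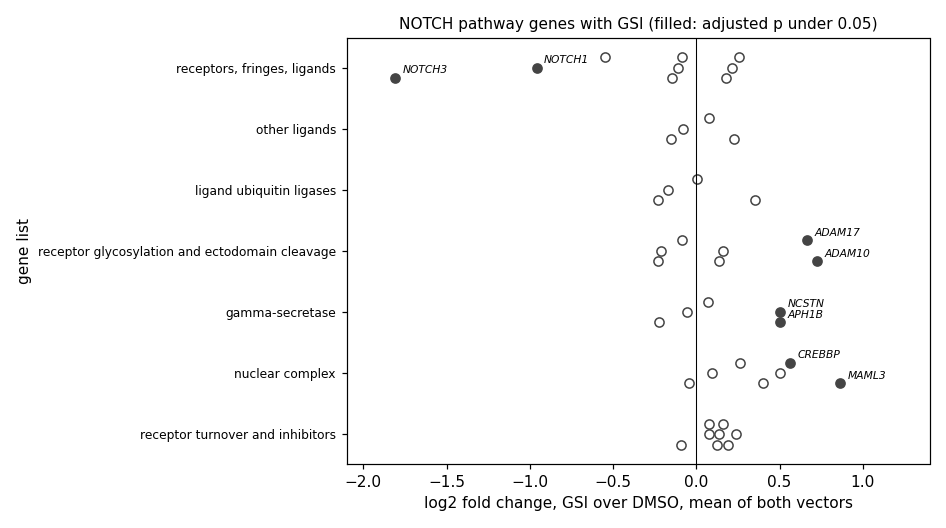
Log2 fold change of GSI over DMSO, averaged over both vectors, for the 9 receptors, fringes and ligands and for 35 other genes of the NOTCH pathway in 6 lists, with filled and named points where the adjusted p was under 0.05. The 2 filled points of the receptors lie left of 0 and the 6 filled points of the other lists lie right of it.

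The genes whose pattern over the 8 arrays was most like that of NOTCH3 were PPIL1, a peptidyl-prolyl isomerase, EIF4G1, a scaffold of translation initiation, and RANBP1, a regulator of the RAN GTPase, with Pearson r of 0.992, 0.990 and 0.989. Among probe sets that name 1 gene, leaving out the receptors, fringes and ligands, 95 had an r above 0.95 with NOTCH3. For NOTCH1 the most alike genes were ANXA9, ZNF551 and AGO2, the Argonaute protein that carries miRNAs, with r of 0.9506, 0.9503 and 0.9498. Their log2 fold changes with GSI over both vectors were -0.37, -0.465 and -0.41 (adjusted p = 0.142, 0.0426 and 0.059, limma), so only ZNF551 was called. How far these r rest on the Empty-V GSI array of set 1 was not analysed. Of the same probe sets 2 lay above 0.95 with NOTCH1. All these arrays share the step between GSI and DMSO, so the likeness is a description over 8 arrays in 4 groups.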

How the data were processed

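Expression in CUTLL1 cells was profiled on 8 Clarion S arrays, 4 groups of 2 assigned from the labels. The authors amplified, labelled and hybridized the RNA and obtained gene-level values with RMA in Transcriptome Analysis Console on hg38 annotation, according to the submitters' processing notes, and deposited log2 values. The supplement of the paper names the method more closely as SST-RMA, a variant of RMA. RMA corrects background and brings arrays to a common distribution, so that a shift shared by all genes would not show. The deposited log2 values were used unchanged and the number of arrays limits the precision. Probe sets were named from the platform's annotation, and all members were taken by symbol (the probe set with the highest mean where there are several). Positions, promoters and miRNAs are those of RefSeq on GRCh38.p14.

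The 4 group means were modelled with limma 3.58.1 under R 4.3.3 (lmFit, contrasts.fit and eBayes, 4 residual and 5.29 prior degrees of freedom), the Benjamini-Hochberg adjustment was applied with a threshold of 0.05, and the fit was tested on simulated data. Figures were drawn in Python 3.11.15 with pandas 2.3.3 and matplotlib 3.10.9. Likeness is Pearson r over 8 arrays, the 3 highest for each member called in any comparison. Up to 3 called genes of each pathway list with the smallest p were named for GSI, and others named were chosen after their values were seen. The members and gene lists were chosen with earlier results of these data known.

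The set numbers were taken to pair the samples, because the supplement describes independent experiments. Deviations of same-numbered arrays from the group mean, compared between groups over probe sets, had r of -0.24 to -0.192. Arrays of the same number thus did not deviate alike, and the differences given set by set rest on the labels. The main fit used no pairing, and the block was an alternative. The other alternatives were a filter on dim probe sets, quantile normalization, median centring, a variance trend, a threshold of 0.1, fewer arrays and leaving out each array. No member had another probe set to try.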

Additional observations from a re-analysis of the deposited data

Results flagged for a closer look

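MFNG was flagged because the arrays of miRNA17-92 cells lay above those of Empty-V cells with GSI (6.94 and 6.75 against 6.29 and 6.02) and below them with DMSO (6.12 and 5.97 against 6.19 and 6.70). The difference between these effects was 1.09 on the log2 scale, and the test of this difference did not pass (adjusted p = 0.236, limma). Between the vectors, 46.7% of all probe sets did not overlap with GSI and 41.5% with DMSO. The flag was sought in the 9 genes only. How many of all probe sets would be flagged was not computed.

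JAG2 was flagged because its GSI arrays lay below the DMSO arrays in miRNA17-92 cells (6.98 and 6.99 against 7.13 and 7.62) and above them in Empty-V cells (7.65 and 7.58 against 7.40 and 7.40). The difference was -0.61 on the log2 scale, and its test did not pass either (adjusted p = 0.393, limma). Between GSI and DMSO, 44.8% of all probe sets did not overlap in miRNA17-92 cells and 50.1% in Empty-V cells. The share flagged over all probe sets was not computed here either.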

How the results depend on the processing

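The fall of NOTCH3 with GSI kept its direction and its call over both vectors and in Empty-V cells under every alternative run. Of 720 values of the 9 genes under the alternatives, 656 kept their direction and side of the threshold, 9 lost and 7 gained a call and 48 changed sign, none of them a called value. The set as a replicate block changed no call of the 9 genes, but fewer probe sets were called, 1006 for GSI across vectors (1680 without it), 178 for GSI in miRNA17-92 cells (336), 825 in Empty-V cells (1601), 33 for miRNA17-92 under GSI (230), 3 under DMSO (9) and 1 for the difference of the GSI effects (6). With the set numbers crossed, an alternative chosen after seeing the data, 5 were called under DMSO and 1 for the difference. The causes of these changes were not tested.

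Without dim probe sets 582 were called for GSI in miRNA17-92 cells, 911 for miRNA17-92 under GSI with 1 of the 9 genes (NOTCH3), 39 under DMSO and 14 for the difference. An intensity trend and a robust fit gave 2673 for GSI across vectors, 721 in miRNA17-92 cells (2 of the 9 genes), 2551 in Empty-V cells, 1232 for miRNA17-92 under GSI (1 gene), 45 under DMSO and 111 for the difference. A threshold of 0.1 gave 2727 for GSI across vectors, 623 in miRNA17-92 cells, 2599 in Empty-V cells, 927 for miRNA17-92 under GSI (1 gene) and 21 for the difference. With only the 4 arrays compared, 177 were called for GSI in miRNA17-92 cells (2 genes), 841 in Empty-V cells, 34 for miRNA17-92 under GSI and 0 under DMSO.

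Quantile normalization gave 5 under DMSO and turned small log2 fold changes of RFNG for GSI in miRNA17-92 cells (-0.00063), of NOTCH4 for miRNA17-92 under GSI (0.058) and, under DMSO, of NOTCH1 (0.0088), NOTCH2 (0.0094) and JAG2 (0.0031). Median centring turned NOTCH4 under GSI to 0.04.

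Leaving out 1 array at a time gave 953 to 1341 calls for GSI across vectors (1 to 2 of the 9 genes), 127 to 285 in miRNA17-92 cells (0 to 2) and 514 to 1310 in Empty-V cells (1 to 2). It gave 4 to 85 for miRNA17-92 under GSI, 0 to 3 under DMSO and 0 to 2 for the difference, with 0 of the 9 genes in each. The log2 fold changes that turned sign ranged as follows. For GSI across vectors NOTCH2 ran from -0.235 to 0.015 and JAG2 from -0.21 to 0.035. In miRNA17-92 cells NOTCH2 ran from -0.32 to 0.18, RFNG from -0.08 to 0.16 and DLL1 from -0.21 to 0.65. In Empty-V cells NOTCH2 ran from -0.395 to 0.095, JAG1 from -0.045 to 0.355 and DLL1 from -0.145 to 0.565. For miRNA17-92 under GSI NOTCH1 ran from -0.97 to 0.26, NOTCH2 from -0.095 to 0.225, NOTCH4 from -0.25 to 0.23 and DLL1 from -0.575 to 0.285. Under DMSO NOTCH1 ran from -0.05 to 0.02, NOTCH2 from -0.265 to 0.235, NOTCH3 from -0.175 to 0.365, NOTCH4 from -0.595 to 0.195, RFNG from -0.19 to 0.05, JAG2 from -0.27 to 0.22 and DLL1 from -0.51 to 0.20. For the difference NOTCH1 ran from -0.955 to 0.275, NOTCH2 from -0.17 to 0.33, NOTCH4 from -0.205 to 0.585, JAG1 from -0.16 to 0.24 and DLL1 from -0.42 to 0.44. No second probe set of a gene could be tried, since each gene has 1. A group left with 1 array is assumed to vary like the others. Signals of JAG1 and DLL1, near percentile 21.8 and 21.7 of all probe sets, limit what can be read from them.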
